A study of Homo sapiens with 7 samples.

Results

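The mRNAs of 9 enzymes that add nucleotides to the 3′ end of RNA were examined in NCI-H520 cells, a human line that was derived from squamous lung carcinoma, upon silencing of 5 deadenylases, the enzymes that remove poly(A) tails. The 9 were the poly(A) polymerases PAPOLA, PAPOLG and MTPAP, and the terminal nucleotidyltransferases TENT2, TENT4A, TENT4B, TUT1, TUT4 and TUT7. They were chosen by name and not by their measured values, though earlier results of these data were known. A gene probe was a member when its transcript accession belonged to one of these genes. This gave 9 probes of 42405, 1 for each of 9 genes of 19063 named. The genes lie on chromosomes 14 (PAPOLA), 2 (PAPOLG), 10 (MTPAP), 5 (TENT2 and TENT4A), 16 (TENT4B), 11 (TUT1), 1 (TUT4) and 9 (TUT7). Total RNA was hybridised to single-colour Agilent arrays, with 7 arrays and 1 array per group. The groups were cells given the empty pLKO.1 vector, cells given a plasmid for a non-target shRNA, and cells given plasmids for shRNAs against PARN, CNOT6, CNOT6L, CNOT7 or NOC (nocturnin, gene NOCT). All cells, controls included, received 6 µg of plasmid, were selected with puromycin at 6 µg/mL from 12 h and were harvested at 72 h. For the CNOT6L shRNA the labels repeat the accession of NOC, which leaves its target sequence uncertain.

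Canonical poly(A) polymerases make the tail of nearly every mRNA in the nucleus, after cleavage of the pre-mRNA. Terminal nucleotidyltransferases act later and add adenosines, uridines or mixed tails to mRNAs, microRNAs and small nuclear or nucleolar RNAs. Deadenylases work in the opposite direction, so tail length reflects both families. PARN in particular trims the oligo(A) tails that TENT4B adds to small nucleolar RNAs and to telomerase RNA, and the uridylyltransferases TUT4 and TUT7 mark mRNAs whose tails have already been shortened. An mRNA level on an array gives neither the amount nor the activity of these enzymes, and no tail length was measured here.

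The promoters of the members differed in their sequence. RefSeq promoter windows on assembly GRCh38.p14 were held for 7 of the 9 members (no entry for TENT4A and TUT4). The 250 bases before the start are given for PAPOLA and MTPAP, whose mRNA levels moved apart across the arrays, for PAPOLG, which was highest with PAPOLA on the NOC shRNA array, and for TUT1, which was low on the same arrays as MTPAP. Capitals mark the letters of 5 motifs searched on both strands: CCAAT (the CCAAT box, found in 32.0% of 35116 windows), GGGCGG (the GC box, found in 42.6%), CGGAAG (the core of ETS sites, found in 16.5%), GCATGCG (the core of NRF1 sites, found in 3.39%) and TATAAA (the TATA box, found in 3763 windows). The PAPOLA window, the first of 3 starts listed, lies at chr14:96502126-96502375 on the plus strand. The PAPOLG window is chr2:60756018-60756267 on the plus strand. The MTPAP window is chr10:30349279-30349528 on the minus strand, and that of TUT1 is chr11:62591524-62591773 on the minus strand. All are written 5′ to 3′ in the direction of the gene.
PAPOLA: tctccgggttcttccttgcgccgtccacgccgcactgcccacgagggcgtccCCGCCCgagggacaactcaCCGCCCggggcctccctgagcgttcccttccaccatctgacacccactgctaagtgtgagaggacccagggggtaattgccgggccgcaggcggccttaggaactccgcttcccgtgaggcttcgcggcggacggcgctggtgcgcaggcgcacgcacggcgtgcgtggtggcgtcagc
PAPOLG: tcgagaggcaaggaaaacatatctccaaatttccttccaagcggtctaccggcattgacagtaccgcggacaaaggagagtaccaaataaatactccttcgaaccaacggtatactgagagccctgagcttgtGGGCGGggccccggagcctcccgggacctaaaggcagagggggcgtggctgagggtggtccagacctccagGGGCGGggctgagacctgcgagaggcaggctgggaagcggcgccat
MTPAP: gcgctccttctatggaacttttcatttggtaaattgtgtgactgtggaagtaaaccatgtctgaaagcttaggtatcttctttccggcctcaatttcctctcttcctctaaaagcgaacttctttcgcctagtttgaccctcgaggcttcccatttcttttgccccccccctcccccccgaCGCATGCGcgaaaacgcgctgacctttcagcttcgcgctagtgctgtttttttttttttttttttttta
TUT1: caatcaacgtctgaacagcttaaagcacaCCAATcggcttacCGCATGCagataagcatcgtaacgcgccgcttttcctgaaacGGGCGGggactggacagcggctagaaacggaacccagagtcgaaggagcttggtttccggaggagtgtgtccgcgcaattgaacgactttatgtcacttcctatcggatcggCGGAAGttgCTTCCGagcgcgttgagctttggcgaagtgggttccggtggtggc

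PAPOLA and PAPOLG each had 2 GC boxes and no other match. MTPAP had neither a GC box nor a CCAAT box, and its 2 matches were to the NRF1 core and overlapped on opposite strands. TUT1 also held the NRF1 core, beside 1 CCAAT box, 1 GC box and 2 ETS cores. None of the 7 windows had a TATA box. GC content ran from 46.0% in MTPAP to 75.2% in TUT7, against a median of 58.0% over all windows. These matches describe the letters of the windows and say nothing of which factors bind there.

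Each shRNA array had its own target at the lowest level of the 7 arrays. PARN stood at 45.8% of the control mean, CNOT7 at 54.2%, CNOT6L at 63.0%, NOCT at 74.3% and CNOT6 at 89.6%, so any silencing of CNOT6 and NOCT was slight at the mRNA level. NOCT was -0.64 from the empty vector and -0.22 from the non-target array, the latter less than the gap between the controls. CNOT6 was -0.21 and -0.11 from them. With 1 array per group, silencing was not tested. In bulk RNA, fewer cells expressing a gene and less of its RNA per cell cannot be told apart. Between 82.0% and 91.4% of gene probes were above background per array. Of the squamous markers, SOX2, KRT6A and PKP1 were above background on every array, KRT5 on 4 and TP63 on 2 arrays, and DSG3 on none. Markers of other cell types were also above background on every array. These were CD68, PTPRC and CD3E of leukocytes, DCN and COL1A2 of fibroblasts, and NAPSA and SFTPC of lung adenocarcinoma and alveolar cells. Detection thus did not set the squamous list apart. Summed signals of squamous markers were 24.4 to 44.1 times the 75th percentile of an array. Those of leukocyte markers were 0.16 to 0.37 times, of fibroblast markers 0.03 to 0.05 times, and of adenocarcinoma and alveolar markers 0.09 to 0.18 times that level. The array positions on the slide put both controls, PARN shRNA and CNOT6 shRNA in row 1, and CNOT6L, CNOT7 and NOC shRNA in row 2. Row 2 held no control, and for NOC shRNA the image analysis was run on a later day than for the other arrays. The control arrays differed at least 2-fold from each other for 18.1% of probes, though for 0 of the 9 members.

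All 9 tailing enzyme mRNAs were above background on all 7 arrays, with no saturated spot and none marked as an outlier. Levels below are log2 processed signals relative to the 75th percentile of the same array, and the levels of different probes are not compared. In order of their range over the 7 arrays, in log2 units, the members were PAPOLA (0.78), TUT1 (0.63), TUT4 (0.59), TENT4B (0.54), MTPAP (0.44), PAPOLG (0.41), TENT4A (0.38), TENT2 (0.28) and TUT7 (0.22). The largest range, that of PAPOLA, was thus 1.71-fold from the lowest to the highest array. The gap between the control arrays, used as a yardstick below, moved with the scaling. Under the 75th percentile, the empty vector minus the non-target array was 0.30 for PAPOLA, -0.13 for PAPOLG, 0.22 for MTPAP, 0.01 for TENT2, -0.19 for TENT4A, 0.28 for TENT4B, 0.36 for TUT1, -0.34 for TUT4 and 0.14 for TUT7. With each array set to its median instead, the same gap was 0.07 for PAPOLA, -0.36 for PAPOLG, -0.01 for MTPAP, -0.22 for TENT2, -0.42 for TENT4A, 0.04 for TENT4B, 0.13 for TUT1, -0.57 for TUT4 and -0.09 for TUT7. A difference that lay within the gap under 1 scaling could thus exceed it under the other.

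**Figure D1:**
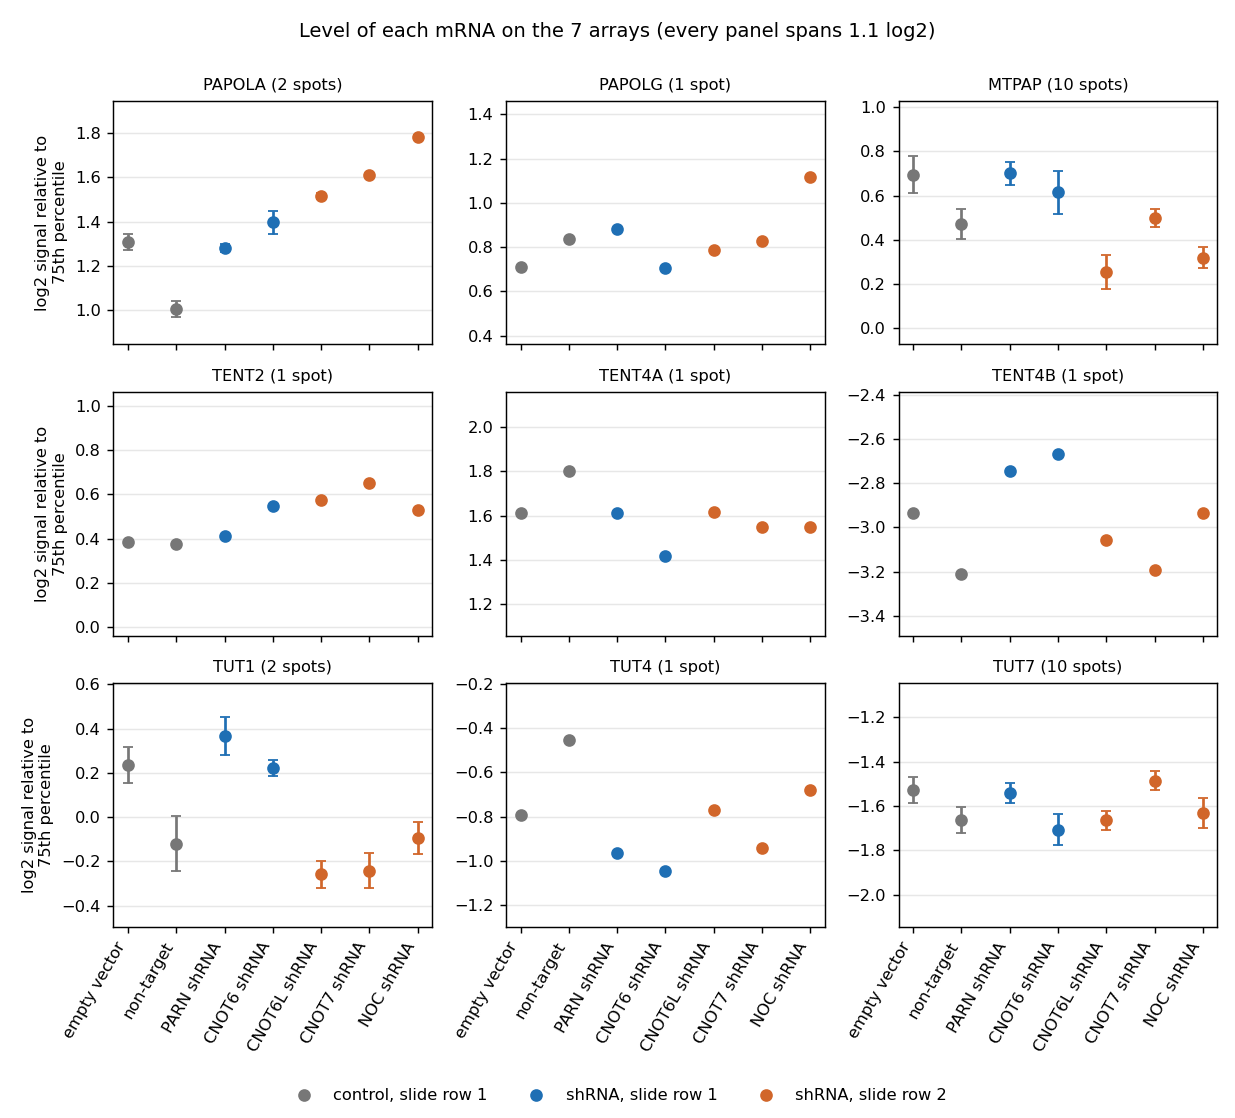
Level of each mRNA on the 7 arrays, as log2 processed signal relative to the array's 75th percentile. Points are single arrays (grey, controls; blue, shRNA arrays of slide row 1; orange, shRNA arrays of slide row 2), and bars are the SD between spots where a probe had more than 1 spot. PAPOLA was highest on the 3 arrays of slide row 2, TUT1 was lower on those arrays than on the empty-vector, PARN shRNA and CNOT6 shRNA arrays, and TUT7 spanned the narrowest range.

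No member met the call rule, which asked for a 2-fold or larger difference from each control array with the same sign. It called 0 of 9 with PARN shRNA, where 0.803% of all probes tested were called. It also called 0 of 9 with CNOT6 (0.7%), CNOT6L (1.09%), CNOT7 (1.46%) and NOC shRNA (1.91%). At 1.5-fold the count was again 0 of 9 for each shRNA, beside 2.23% of all probes with PARN, 5.06% with CNOT6, 5.2% with CNOT6L, 5.97% with CNOT7 and 6.5% with NOC shRNA. At background shares this low a count of 0 among 9 says little about the members. The median size of the members' differences from the control mean ran from 0.12 to 0.17 log2 over the 5 shRNAs, and that of all probes tested from 0.18 to 0.27. Over probes above background on all arrays, as the members were, it ran from 0.16 to 0.25. Signed medians of the members were 0.11 with PARN, 0.03 with CNOT6, -0.07 with CNOT6L, -0.08 with CNOT7 and -0.04 with NOC shRNA. Over all probes tested they were -0.01, 0.11, -0.02, -0.09 and -0.07 in the same order.

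A looser reading asks only whether an array lay outside the interval between its 2 controls. With PARN shRNA this held for 6 of 9 members, 5 higher and 1 lower, where 52.9% of probes above background on all arrays did the same. For CNOT6 shRNA it was 3 higher and 4 lower (64.4% of all probes), and for CNOT6L shRNA 2 higher and 3 lower (63.3%). For CNOT7 shRNA 3 were higher and 3 lower (65.2%), and for NOC shRNA 3 higher and 2 lower (65.6%). These counts were near those of the background.

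**Figure D2:**
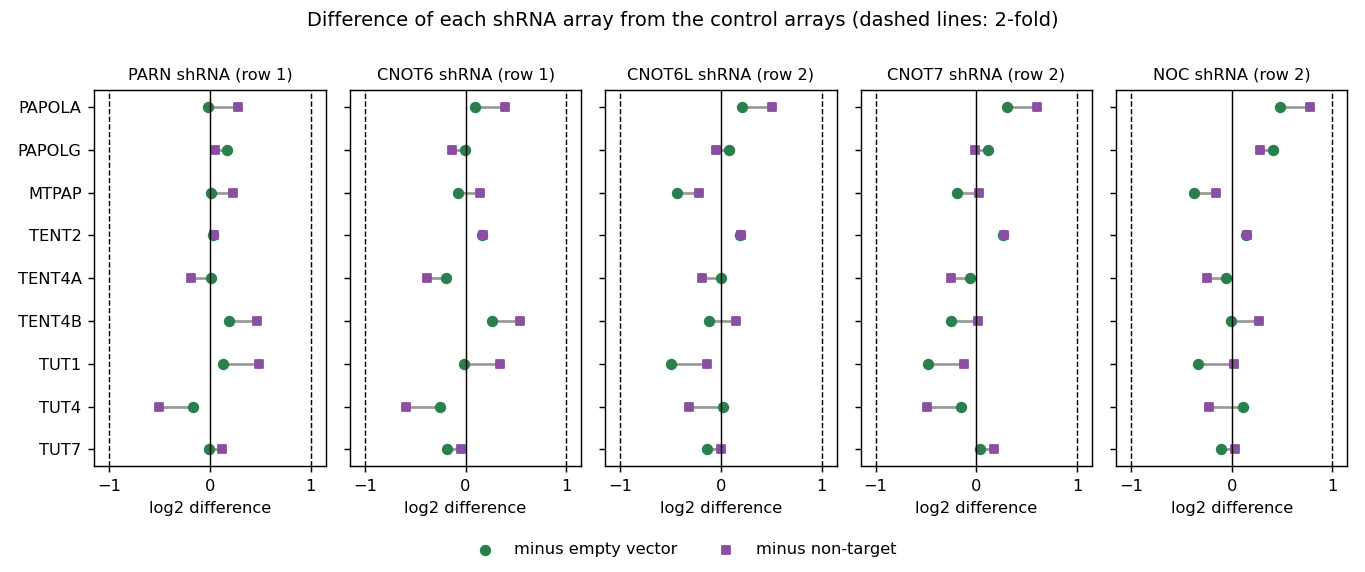
Log2 difference of each mRNA on each shRNA array from the empty-vector array (circles) and the non-target array (squares), with a grey line between them. Dashed lines mark 2-fold. No member reached 2-fold against either control, and the 2 differences of PAPOLA lay farthest to the right on the NOC shRNA array, at 0.48 and 0.78.

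Among the canonical enzymes, PAPOLA, which makes the tails of most mRNAs, was higher than both controls on 4 of the 5 shRNA arrays, of which CNOT6 shRNA took the opposite sign without scaling between arrays. Its level (probe A_23_P376239) was 1.31 with the empty vector and 1.01 with the non-target shRNA. It was 1.28 with PARN, 1.40 with CNOT6, 1.52 with CNOT6L, 1.61 with CNOT7 and 1.78 with NOC shRNA. The SD between its 2 spots was 0.0048 to 0.0517 on these arrays, so the steps from 1 level to the next were larger than the spread between spots, except the step of 0.03 between the PARN shRNA and empty-vector arrays. Spots of 1 array share 1 RNA sample, however, and no replicate culture was measured. The gap between the controls, 0.30, is a yardstick only. The control cultures were given different plasmids, so spread between cultures and any difference between the plasmids cannot be told apart in it.

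Against that gap, PAPOLA with NOC shRNA was 0.48 above the empty vector and 0.78 above the non-target array, which puts it at 154% of the control mean. With CNOT7 shRNA it was 0.30 and 0.60 above them (137% of the control mean), and with CNOT6L shRNA 0.21 and 0.51 (128%). The smaller of the differences exceeded the control gap for NOC shRNA and equalled it within 0.01 for CNOT7 shRNA. With median scaling PAPOLA was above both controls on all 5 shRNA arrays. These 3 are the arrays of slide row 2, and every one of them was above every array of row 1. PAPOLA was the 1 member of 9 whose slide rows did not overlap, as was true of 26.0% of probes above background on all arrays. The separation of PAPOLA held under every scaling run, but the count did not. TENT2 joined it with the series table, TENT2 and TUT1 with median scaling, and PAPOLG, TENT2 and TUT4 without scaling. Silencing and slide row cannot be told apart for these arrays. Within slide row 2 the NOC shRNA array was 0.22 above the mean of the other two.

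PAPOLG encodes a second nuclear poly(A) polymerase. Its level (probe A_23_P209694) was 0.71 with the empty vector and 0.84 with the non-target shRNA, then 0.88 with PARN, 0.71 with CNOT6, 0.79 with CNOT6L, 0.83 with CNOT7 and 1.12 with NOC shRNA. The NOC shRNA array alone stood apart, 0.41 above the empty vector and 0.28 above the non-target array (127% of the control mean), and 0.31 above the mean of the CNOT6L and CNOT7 shRNA arrays beside it. The control gap was 0.13, and the probe had 1 spot, so it gave no spread between spots. With median scaling the empty vector minus the non-target array was -0.36. The NOC shRNA array was 0.43 above the control mean there, but its distance from the non-target array was within that gap. The NOC shRNA array was thus the highest of the 7 for both nuclear polymerases.

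MTPAP, the poly(A) polymerase of mitochondria, ran the other way. Its level (probe A_23_P1145) was 0.69 with the empty vector, 0.47 with the non-target shRNA, 0.70 with PARN, 0.61 with CNOT6, 0.26 with CNOT6L, 0.50 with CNOT7 and 0.32 with NOC shRNA. The probe was printed on 10 spots, with an SD between spots of 0.0394 to 0.0967. With CNOT6L shRNA 10 of 10 spots were lower than the same spots of both controls, and the mean difference was -0.44 from the empty vector and -0.22 from the non-target array (79.7% of the control mean). With NOC shRNA 10 of 10 spots were lower too, by -0.37 and -0.15 (83.3%). The differences from the non-target array did not exceed the control gap of 0.22. With median scaling the controls were 0.01 apart in size, and the differences from their mean, -0.25 for CNOT6L and -0.18 for NOC shRNA, exceeded that gap. The CNOT6L difference from the control mean was -0.33 and took the opposite sign, 0.07, only without scaling between arrays.

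The cytoplasmic poly(A) polymerase TENT2, also known as GLD2, was measured most alike in the controls. Its probe, A_23_P393425, stood at 0.38 with the empty vector and 0.37 with the non-target shRNA, a gap of 0.01. All 5 shRNA arrays lay above both, at 0.41 with PARN, 0.55 with CNOT6, 0.58 with CNOT6L, 0.65 with CNOT7 and 0.53 with NOC shRNA. The differences were small, from 0.03 to 0.28, and the probe had 1 spot. It was the 1 member of 9 whose shRNA arrays did not overlap the controls, which held for 6.42% of probes above background on all arrays. With the median in place of the 75th percentile the controls were 0.22 apart and the groups overlapped, and they also overlapped without scaling.

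TENT4A and TENT4B are paralogs that add mixed tails to mRNAs, and TENT4B also adds oligo(A) to nuclear RNAs for trimming or decay. TENT4A (probe A_23_P18824) stood at 1.61 with the empty vector and 1.80 with the non-target shRNA, and at 1.61 with PARN, 1.42 with CNOT6, 1.62 with CNOT6L, 1.55 with CNOT7 and 1.55 with NOC shRNA. No shRNA array was above the higher control, and the CNOT6 shRNA array was the lowest, by -0.19 and -0.38 (81.9% of the control mean). With median scaling the empty vector minus the non-target array was -0.42. The distance of the CNOT6 shRNA array from the empty vector was then within that gap. TENT4B (probe A_33_P3377459) stood at -2.93 with the empty vector and -3.21 with the non-target shRNA. It was -2.75 with PARN, -2.67 with CNOT6, -3.06 with CNOT6L, -3.19 with CNOT7 and -2.94 with NOC shRNA. The highest were the PARN and CNOT6 shRNA arrays, at 125% and 132% of the control mean. Their differences from the empty vector, 0.19 and 0.27, were within the control gap of 0.28. That gap was 0.04 with quantile normalization and 0.04 with median scaling, where the differences from the control mean (0.28 for PARN and 0.24 for CNOT6 shRNA with quantiles, 0.28 and 0.25 with the median) exceeded it. Without scaling both took the opposite sign. The 3 remaining arrays lay between the controls.

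TUT1, also called Star-PAP, adds uridines to U6 small nuclear RNA and poly(A) to a set of mRNAs. Its level (probe A_23_P53015) was 0.24 with the empty vector and -0.12 with the non-target shRNA, a control gap of 0.36. It was 0.37 with PARN, 0.22 with CNOT6, -0.26 with CNOT6L, -0.24 with CNOT7 and -0.09 with NOC shRNA, with an SD of 0.0355 to 0.1254 between its 2 spots. The CNOT6L and CNOT7 shRNA arrays lay below both controls, by -0.50 and -0.14 for CNOT6L and by -0.48 and -0.12 for CNOT7. The PARN shRNA array lay 0.13 and 0.49 above them. Each of these was within the control gap when set against the nearer control. With median scaling the gap was 0.13, and the differences from the control mean were 0.26 for PARN, -0.24 for CNOT6L and -0.19 for CNOT7 shRNA. Set against the nearer control, those of PARN and CNOT6L shRNA exceeded that gap and that of CNOT7 shRNA did not. Without scaling all 5 differences from the control mean took the opposite sign.

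TUT4 and TUT7 add uridines to deadenylated mRNAs and to precursors of let-7 microRNAs. TUT4 (probe A_23_P34433) stood at -0.79 with the empty vector and -0.45 with the non-target shRNA, and at -0.96 with PARN, -1.04 with CNOT6, -0.77 with CNOT6L, -0.94 with CNOT7 and -0.68 with NOC shRNA. The non-target array was the highest of the 7. The PARN, CNOT6 and CNOT7 shRNA arrays were below both controls, at 78.9%, 74.7% and 80.1% of their mean, yet 0.17, 0.25 and 0.15 below the empty vector, less than the control gap of 0.34. TUT7 was the steadiest member. Its probe, A_23_P123727, stood at -1.53 with the empty vector, -1.66 with the non-target shRNA, -1.54 with PARN, -1.71 with CNOT6, -1.66 with CNOT6L, -1.49 with CNOT7 and -1.63 with NOC shRNA. Its range of 0.22 compares with an SD of 0.0421 to 0.0717 between 10 spots, and no shRNA array had all 10 spots on 1 side of both controls.

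The comparison with residual degrees of freedom set all 5 shRNA arrays against the 2 controls in limma, two-sided, with Benjamini-Hochberg adjustment over 38004 probes. It passed 0.0% of probes and 0 of 9 members. At an unadjusted p under 0.05 it gave 1420 probes and 1 member, PAPOLA, which was 0.36 higher with shRNA (SE 0.16, 95% interval 0.0049 to 0.7153, adjusted p = 1). That count of members was 0 with quantile normalization, median scaling, no scaling, normexp or the series table, and without the non-target, CNOT6L, CNOT7 or NOC shRNA array. The intervals of the others included 0, and for TENT2 the interval was -0.10 to 0.43. The arms here are different shRNAs and different control plasmids, so the spread is not that of replicate cultures.

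Slide row was then fitted beside silencing, though the fit cannot separate slide row from the gene silenced. With no control in row 2, the row term compares CNOT6L, CNOT7 and NOC shRNA with PARN and CNOT6 shRNA. In limma with shRNA as a term, row 2 differed from row 1 for 3.88% of probes and for 0 of 9 members. TUT1 came nearest, with -0.49 in row 2 (SE 0.14, adjusted p = 0.0861), followed by MTPAP with -0.30 (adjusted p = 0.196), PAPOLA with 0.30 (adjusted p = 0.221) and TENT4B with -0.35 (adjusted p = 0.243). With slide row as a term the shRNA difference of PAPOLA was 0.18 (SE 0.14, adjusted p = 0.925), and TUT4 had the largest, -0.38 (SE 0.16, adjusted p = 0.925). As row 2 held no control, the shRNA difference with slide row as a term rests on row 1 alone. A fit of slide row 1 only, PARN and CNOT6 shRNA against both controls, therefore gave the same -0.38 for TUT4 (adjusted p = 1). It is not a second result, and 0 members passed. The row 2 arrays were also set against each other by the 2-fold rule, and 0 of 9 members were called for CNOT6L (1.29% of all probes), CNOT7 (0.343%) or NOC shRNA (0.492%).

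Ratios of 2 members on 1 array do not depend on a factor that scales the whole array. The ratio of PAPOLA to MTPAP, a pair chosen after its values were seen, was nearly alike in the controls, which were 0.08 apart on the log2 scale. Against the mean of the controls this log2 ratio differed by 0.01 with PARN, 0.21 with CNOT6, 0.69 with CNOT6L, 0.54 with CNOT7 and 0.89 with NOC shRNA. On the NOC shRNA array the signal of PAPOLA relative to MTPAP was thus 1.85 times that of the controls. The larger values were those of slide row 2, and as the pair was picked for this difference it was not tested.

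The paralog pairs had wider gaps between the controls. Against the mean of the controls, the log2 ratio of PAPOLA to PAPOLG differed by 0.02 with PARN and by 0.28 to 0.40 with the other shRNAs. These differences were below a control gap of 0.43. The log2 ratio of TENT4A to TENT4B differed from the control mean by -0.42 with PARN and -0.69 with CNOT6 shRNA. On the 3 arrays of row 2 it differed by -0.29 to -0.04, with the controls 0.47 apart. That of TUT4 to TUT7 was lower than the control mean by 0.39 with PARN, 0.31 with CNOT6 and 0.43 with CNOT7 shRNA, with the controls 0.48 apart. The one difference from the control mean in these 3 pairs that exceeded its control gap was that of TENT4A to TENT4B with CNOT6 shRNA. Against the empty vector, the nearer control, it was -0.46 and did not exceed the gap.

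**Figure D3:**
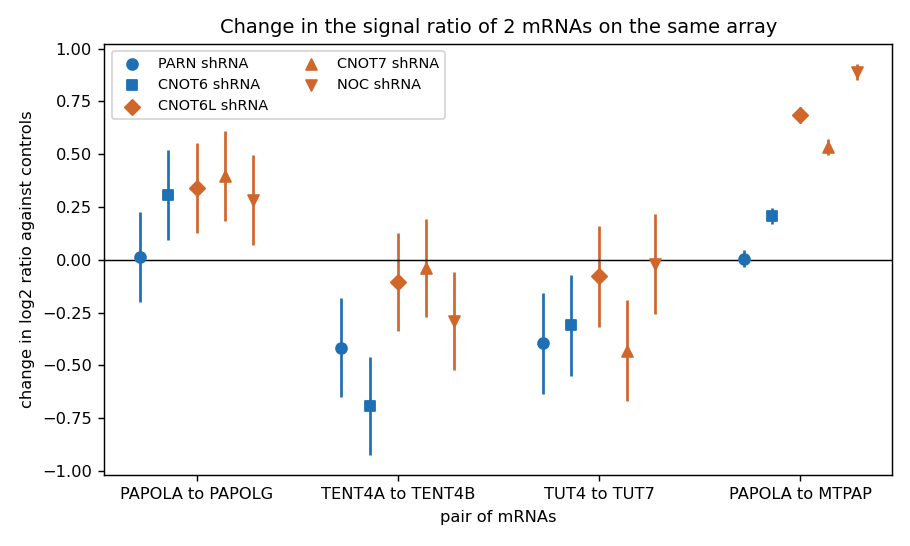
Change in the log2 signal ratio of 2 mRNAs on the same array, against the mean of both controls (points) and against each control (ends of the bars), for slide row 1 (blue) and row 2 (orange). PAPOLA to MTPAP stood at 0.54 to 0.89 on the 3 arrays of row 2. Every bar is as long as the gap between the controls for its pair, which was small for PAPOLA to MTPAP and larger for the paralog pairs.

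The genes that work with these enzymes were examined as 4 lists. Of 18 factors of mRNA 3′ end cleavage and polyadenylation, 18 were above background on all arrays and 0 were called with any shRNA. Their median differences from the control mean, -0.02 to 0.05, were near those of all probes. The values farthest from both controls, named after they were seen, were those of CPSF2, a subunit of the cleavage complex, at -0.53 and -0.59 with CNOT7 shRNA. PABPN1, the nuclear poly(A)-binding protein that stimulates PAPOLA, was at -0.35 and -0.37 with NOC and at -0.23 and -0.24 with CNOT6L shRNA, and at -0.08 and -0.09 with CNOT7 shRNA.

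Of 12 genes listed as partners in tailing, 0 were called, but single genes came close. The list was drawn up around factors that bring TENT2, TUT4, TUT7 or TENT4B to their RNAs or act on the tailed RNA. LIN28B, which binds let-7 precursors, was -1.05 from the empty vector and -0.80 from the non-target array with NOC shRNA. It was also below both controls with CNOT6L (-0.80 and -0.56), CNOT7 (-0.59 and -0.34), CNOT6 (-0.63 and -0.39) and PARN shRNA (-0.32 and -0.08). The RNA-binding protein QKI was at -1.03 and -0.79 with CNOT6L, -0.73 and -0.49 with CNOT7 and -0.55 and -0.30 with NOC shRNA, and below both controls on neither shRNA array of row 1. CPEB3, a member of the family that controls cytoplasmic polyadenylation, was at 0.78 and 0.97 with CNOT6L, at 0.64 and 0.83 with CNOT7 and at 0.44 and 0.64 with NOC shRNA. SLBP, the binding protein of histone mRNAs, was at 0.82 and 0.50 with CNOT6L, 0.69 and 0.37 with CNOT7 and 0.74 and 0.43 with NOC shRNA, and above both controls on neither shRNA array of row 1. For QKI, CPEB3 and SLBP the 3 arrays that stood apart were those of slide row 2, so silencing and slide row cannot be told apart. These genes, too, were named after their values were seen, and each had at least 1 difference under 2-fold. The highest difference of the list from the control mean, 1.17 for LIN28A with CNOT6 shRNA, rested on a non-target array where the probe was not above background. It was 0.64 against the empty vector.

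Of 5 genes of mitochondrial RNA, 0 were called. PDE12, the phosphodiesterase that removes poly(A) from mitochondrial RNA and so opposes MTPAP, was at -0.51 and -0.86 with CNOT7 shRNA and, on the other arrays of slide row 2, at -0.22 and -0.57 with CNOT6L and -0.19 and -0.54 with NOC shRNA. It lay between the controls with PARN and CNOT6 shRNA. LRPPRC and SLIRP, which together stabilise mitochondrial mRNAs, stayed within smaller differences. LRPPRC ran from -0.08 to 0.17 against either control. SLIRP was highest with CNOT6 shRNA, at 0.32 and 0.33, and lowest with PARN shRNA, at -0.11 and -0.10. Of 6 related nucleotidyltransferases 5 could be tested, and 0 were called. TRNT1, which adds CCA to tRNAs, was below both controls on the 3 arrays of slide row 2, by -0.51 and -0.42 with CNOT6L, -0.54 and -0.45 with CNOT7 and -0.44 and -0.35 with NOC shRNA. PAPOLB, known from testis, was above background on the empty-vector array alone, and TENT5D on none of the 7.

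**Figure D4:**
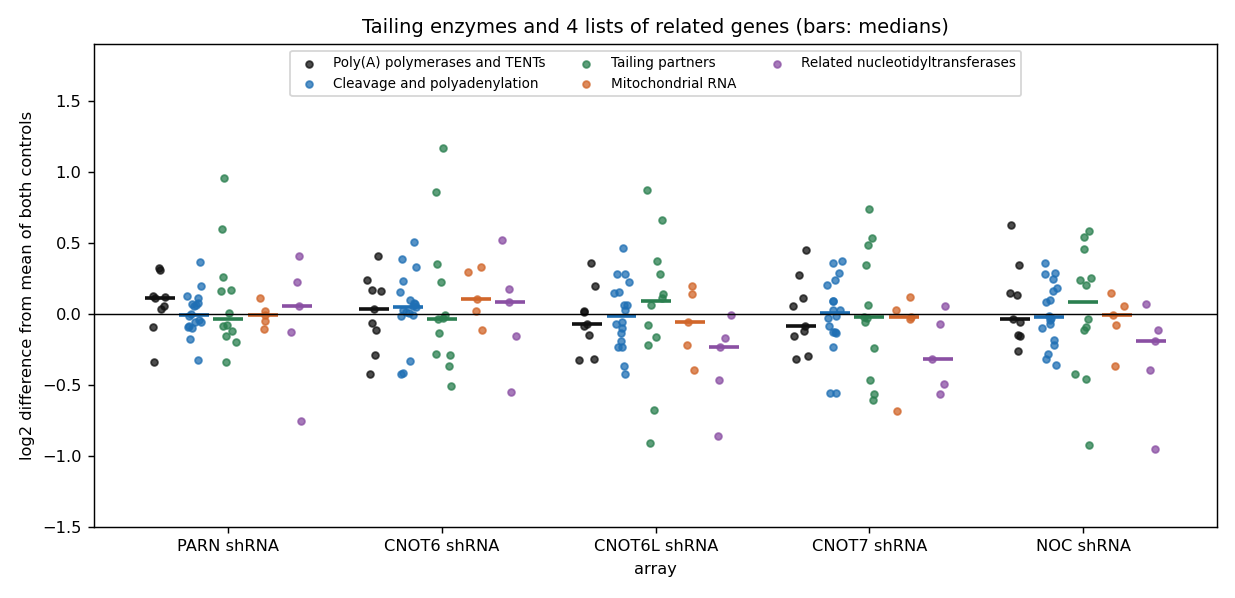
Log2 difference from the mean of both controls for the 9 tailing enzymes and the tested genes of 4 related lists, per shRNA array. Each point is 1 gene and bars are medians. The points of the tailing enzymes lay between -0.42 and 0.63, and their medians between -0.08 and 0.11.

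For the 3 members with the largest ranges, the named genes with the most similar pattern were sought among 16448 genes. The measure was the root mean square difference of centred log2 levels over the 7 arrays. For PAPOLA these were TRIM26 (0.0485) and NPNT (0.0532), and 64 genes lay within 0.1. For TUT1 they were DLG1 (0.0399) and IGIP (0.0485), with 161 genes within 0.1. For TUT4 they were ZC2HC1A (0.0416) and TRAF7 (0.0478), with 98. With 7 arrays many genes fit a pattern this closely, and the likeness is a description only.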

How the data were processed

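RNA of 7 NCI-H520 cultures was measured, 1 array per group, with groups taken from the titles. The members and lists were chosen with earlier results of these data known. Per the file headers, the authors ran Agilent Feature Extraction 10.7.3.1, whose output holds spot intensity for 62976 spots per array. The deposited series table holds log2 values. Apart from 1 shift per array, they matched the scanner values within 0.02 for 100.0% of probes above background on all arrays. From the processed signal, log2 values minus the 75th percentile over all gene spots were computed. Spots marked as outliers were left out, and spots of a probe were averaged. A probe was above background when at least 50% of its spots were. Names came from RefSeq accessions (24827 of 42405 probes). Calls needed 2-fold in the same direction from both controls. The brighter side had to be above background. A dimmer side below background was raised, where needed, to the lowest level detected on that array.

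The 5 shRNA arrays were set against the 2 controls in limma 3.58.1 (R 4.3.3; lmFit, eBayes with trend, two-sided, Benjamini-Hochberg threshold 0.05), on probes detected on at least 2 arrays. The code was tested on simulated data. The 75th percentile of the signal ran from 1366 to 3986, and the median SD between spots of 2-spot probes from 0.0482 to 0.0733. The number of arrays limits the precision. Alternatives covered quantile normalization, the median, no scaling, normexp (offset 50), the series table, outlier spots, dim probes, 1.5-fold, slide row and leaving out arrays. Named genes were the members, the targeted genes, called genes of the lists and, for the 3 members of largest range, the 2 most alike genes; other names were chosen after their values were seen. Untransfected cells were not analysed here.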

Additional observations from a re-analysis of the deposited data

Results flagged for a closer look

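MTPAP and TUT1 lay on opposite sides of the control mean in the slide rows. MTPAP was above the control mean on both shRNA arrays of row 1 and below it on the 3 of row 2, with a difference of -0.30 between the rows (limma adjusted p = 0.196). TUT1 did the same, with -0.49 (limma adjusted p = 0.0861). Neither test of the difference passed. With median scaling the pattern of MTPAP was lost, as CNOT6 shRNA stood at -0.12 and CNOT7 shRNA at 0.03 from the control mean (main values 0.03 and -0.08). Without scaling the sign turned on every shRNA array except that of NOC in MTPAP, and on all 5 in TUT1. PARN and CNOT6 were silenced in row 1 and CNOT6L, CNOT7 and NOC in row 2, so the silenced gene and the slide row cannot be told apart.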

How the results depend on the processing

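No member was called under any alternative except with no scaling between arrays. There TENT4A and TUT4 (2 members) were called with CNOT6 shRNA, the dimmest array. Without scaling, the median of probes above background on all arrays moved by -0.76 on that array relative to the non-target array. The share of all probes called under that setting was not counted, so the 2 calls say little about the members. Over all probes the limma comparison of 5 shRNA arrays with 2 controls called 0, against 3 with no scaling and 0 to 58 when 1 array was left out, with 58 in the absence of the empty vector and 1 in the absence of the non-target shRNA. The causes were not tested. No member was among these calls. Of 45 member differences from the control mean, 37 kept their sign over 5 other settings and 8 changed it, the largest of them 0.12 in size. Among these settings, keeping outlier spots could not change any member, as no member spot was marked as an outlier. With no scaling 26 changed sign. The median of probes above background on all arrays was also followed relative to the non-target array. It moved by -0.17 (empty vector), -0.13 (PARN) and -0.25 (CNOT6) with quantile normalization. With the median it moved by -0.23, -0.16 and -0.27 in the same order, and with no scaling by -0.76 to 0.78. limma with a single shRNA array, whose spread was taken to be that of the controls, called 0 members for each shRNA and only 5 to 25 of all probes, so it says little about the members. Averaging all probes of a gene was not run, as each member had 1 probe. No paired analysis was possible because every group had 1 array.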
